A study of Mus musculus with 20 samples.

Results

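Aminoacyl-tRNA synthetases and tRNA deaminases were followed as 1 gene group across 20 mouse hearts. The group was set by gene name and holds 39 genes: 20 synthetases that are cytosolic or shared with the mitochondria, called cytosolic here, 16 mitochondrial synthetases and 3 deaminases. A probe was found for 38 of them among the 27670 gene names on the array, and Adat3 was not analysed here. Where a gene had several probes, 1 was selected on its mean heart signal over all 20 arrays, the brightest being kept, and no difference between groups entered that choice. All 38 passed the filter on dim probes, which asked for heart signal clearly over background on 3 or more arrays, as did 14576 genes in all.

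Every array compared 1 heart, labelled with Cy5, with a common Cy3 reference of pooled whole C57BL/6 pups at postnatal day 1. The hearts came from MuRF1 +/+ mice, which carry the muscle ubiquitin ligase MuRF1 (gene Trim63), or from MuRF1 -/- mice, which lack it. In each genotype 3 hearts came from mice kept 8 weeks on chow, 4 from mice given chow with 0.05% (w/w) fenofibrate for 3 weeks, and 3 from mice given the same fenofibrate diet for 8 weeks. Fenofibrate activates the nuclear receptor PPAR alpha, and the series asks what MuRF1 does in the heart growth that follows. The labels give no strain, age or sex for the hearts. The series text calls the groups strain-matched and reads 3 to 8 weeks as an age, whereas in the sample labels the weeks are the length of feeding, and the labels were followed. The 3-week hearts have no chow group of matched duration, and the 3-week and 8-week responses of a genotype share the same chow hearts. The labelling protocol mentions Cy3 alone, but each heart's own channel is labelled Cy5, and this set the direction of the ratios. Values are log2 ratios of heart over reference, and differences between groups are log2 differences ± SE from 1 limma model over all arrays, with Benjamini-Hochberg adjustment over all 14576 genes and a threshold of 0.05.

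Aminoacyl-tRNA synthetases join each amino acid to its transfer RNA, the step that sets the meaning of the genetic code. Cells keep one set for protein synthesis in the cytosol and a second, encoded by separate nuclear genes, for the mitochondria, an organelle that fills much of the heart muscle cell. Adenosine deaminases that act on tRNA change adenosine to inosine; ADAT2 pairs with ADAT3 at the wobble base of the anticodon, and ADAT1 acts next to the anticodon of alanine tRNA. Several cytosolic synthetase genes are known targets of ATF4, the transcription factor of the amino acid response.

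Trim63 separated the genotypes on every array, with ratios of -1.19 to -0.49 in MuRF1 -/- hearts and 0.79 to 2.85 in MuRF1 +/+ hearts. The lowest MuRF1 +/+ value belonged to replicate 2 of the 8-week group, where the other hearts of the group were at 2.41 and 2.85. That array, on the second principal component, and replicate 4 of the MuRF1 -/- 3-week group, on the first, lay far from the rest, so counts that rest on them are also given without them. Sex-linked transcripts did not follow the groups evenly. All chow hearts, 3 of 3 in either genotype, had the Y-linked Ddx3y and Eif2s3y over background. At 3 weeks they were so in 0 of 4 (MuRF1 +/+) and 1 of 4 (MuRF1 -/-), and at 8 weeks in 0 of 3 and 2 of 3. Xist, from the inactive X, had mean ratios of -4.06 and -3.85 on chow, -0.29 and 0.01 at 3 weeks, and -1.88 and -3.43 at 8 weeks. In MuRF1 -/- hearts Xist was at -4.13 to -3.49 on chow and at -0.20 to 0.20 at 3 weeks. Ddx3y there was at 1.29 to 1.74 on chow and at -1.22 to -0.17 at 3 weeks. The diet and the sex of the hearts therefore cannot be told apart between chow and 3 weeks in either genotype. The same holds between chow and 8 weeks in MuRF1 +/+ hearts. Between 34.0% and 52.0% of the probes on an array had heart signal over background. The number of arrays limits the precision, and in whole-heart RNA fewer cells of a type and less RNA per cell cannot be told apart.

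Against the newborn pups, the mitochondrial synthetases were mostly higher in the heart and the cytosolic ones were spread around equality. In chow hearts of MuRF1 +/+ mice the median ratio of the 16 mitochondrial members was 0.51 and that of the 20 cytosolic members 0.03, beside 0.01 for all measured genes. Of the 15 mitochondrial members measured on all arrays, 7 were above the reference in all 20 hearts (Aars2, Cars2, Ears2, Fars2, Sars2, Tars2 and Vars2) and 0 were below in all, where 23.2% of all genes were above and 23.9% below. Of the 20 cytosolic members, Sars and Wars were above the reference in every heart and Aars, Cars and Tars below it. These ratios are a description without a test, since the reference is a single pool and no dye swap is labelled, and a dye effect of a probe is part of its ratio.

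**Figure D1:**
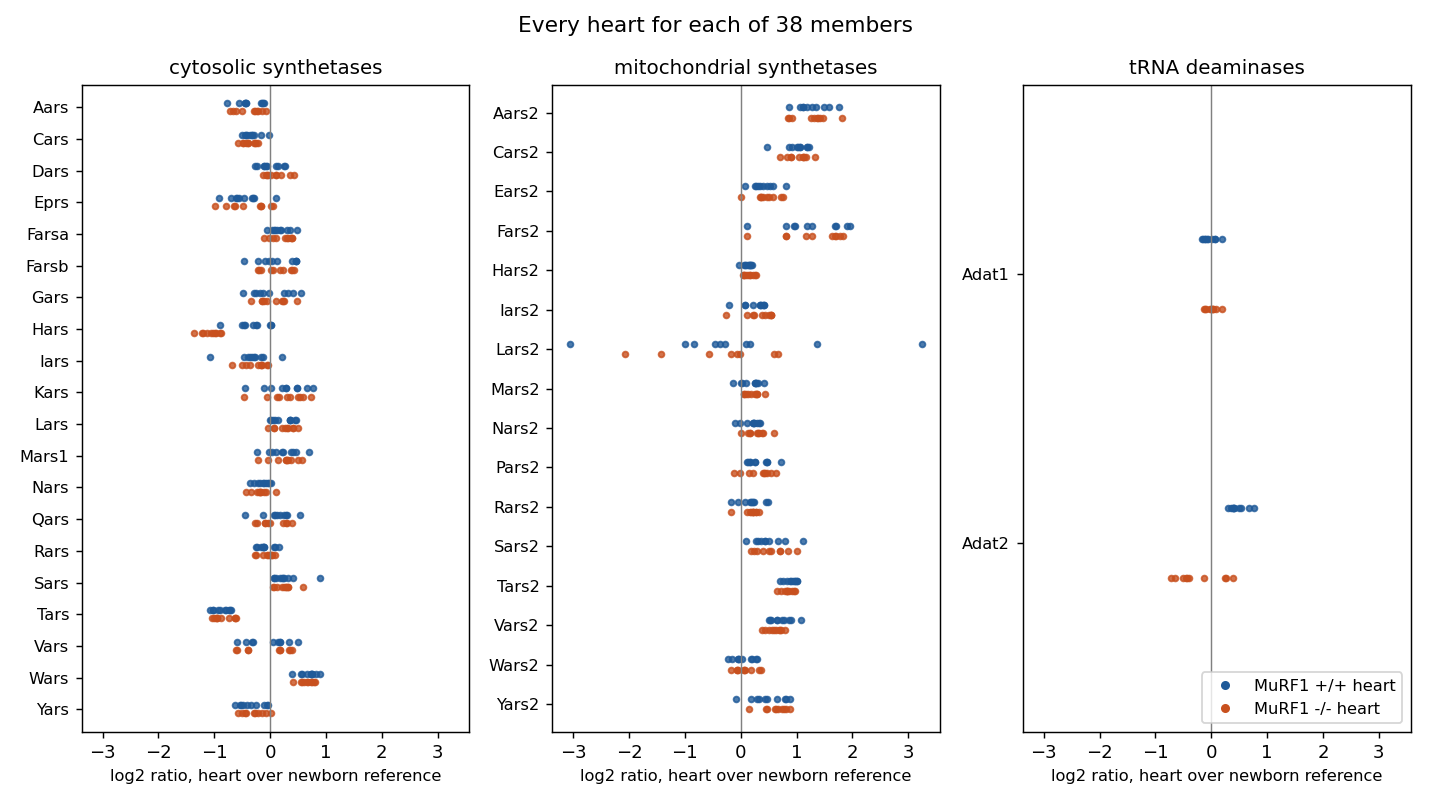
Log2 ratio of heart over newborn reference for each of 38 members, 1 point per heart, MuRF1 +/+ in blue and MuRF1 -/- in orange. Aars2, Cars2 and Tars2 lie above 0 in all 20 hearts, Aars, Cars and Tars lie below 0 in all 20, and for Hars the 10 MuRF1 -/- hearts lie between -1.37 and -0.89.

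The range of each role shows in single genes. Aars2, which charges mitochondrial alanine tRNA, had the highest mean ratio of the mitochondrial members (1.27 ± 0.28, SD over 20 hearts, from 0.85 to 1.81), and its cytosolic counterpart Aars was below the reference in every heart (-0.37 ± 0.22, from -0.76 to -0.07). Wars, the cytosolic tryptophan enzyme and a known interferon-induced gene, had the highest mean of the cytosolic members (0.67 ± 0.13), and Tars, the threonine enzyme, the lowest (-0.86 ± 0.15). Lars2, the mitochondrial leucine enzyme, had the lowest mean of the mitochondrial members (-0.23 ± 1.34 over 18 hearts) and by far the widest spread, from -3.06 to 3.25. The Lars2 spot was marked as an outlier on 2 arrays, replicate 4 of the MuRF1 -/- 3-week group and replicate 3 of the MuRF1 -/- 8-week group, which enter no Lars2 value. Adat2 had the higher mean of the deaminases (0.12 ± 0.47) and Adat1 the lower (-0.02 ± 0.10), and Adat1 was well above background on 0 of 3 arrays in 3 of the 6 groups.

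Hars and Adat2 were the members that differed with the loss of MuRF1 on chow and at 3 weeks of fenofibrate. Hars, the cytosolic histidine enzyme, was lower in MuRF1 -/- hearts by 1.85-fold on chow and 1.90-fold at 3 weeks. Adat2, the catalytic partner in the wobble deaminase, was lower by 1.77-fold and 1.90-fold. For each gene the difference rests on 1 measured probe. Adat2 had no other probe, and the other Hars probe was over background on 1 array. Across the array a genotype difference was rare: 0.0892% of genes passed the test on chow (0.0343% higher and 0.0549% lower in MuRF1 -/- hearts) and 0.384% at 3 weeks (0.35% higher and 0.0343% lower), and members made up 2 of the 8 genes called lower on chow and 2 of the 5 called lower at 3 weeks. The members were chosen with earlier results of these data known, so these shares are a description and not a test of the group.

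In MuRF1 +/+ hearts the ratio of Hars was -0.25, -0.47 and -0.31 on chow and 0.02, 0.01, -0.01 and -0.45 at 3 weeks. Hearts without MuRF1 had -1.21, -1.13 and -1.37 on chow and -0.89, -0.98, -1.02 and -1.23 at 3 weeks. The highest MuRF1 -/- heart lay below the lowest MuRF1 +/+ heart on both diets. On chow 0 members were higher without overlap of the genotypes and 6 lower, beside 6.04% and 6.28% of all genes, and at 3 weeks 0 were higher and 2 lower, beside 2.56% and 1.71%. The difference was -0.89 ± 0.14 on chow (adjusted p = 0.0104, limma) and -0.92 ± 0.13 at 3 weeks (adjusted p = 0.00264, limma). Within the slides that held both genotypes it was -1.06 and -0.96 on chow (2 slides) and -0.97 to -0.78 at 3 weeks (3 slides).

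For Adat2, MuRF1 +/+ hearts had ratios of 0.40, 0.31 and 0.49 on chow and 0.54, 0.41, 0.41 and 0.36 at 3 weeks. MuRF1 -/- hearts had -0.45, -0.40 and -0.43 on chow and -0.65, -0.50, -0.72 and -0.12 at 3 weeks. Every MuRF1 +/+ heart was above the newborn reference and every MuRF1 -/- heart below it. The difference was -0.83 ± 0.12 on chow (adjusted p = 0.00519, limma) and -0.92 ± 0.11 at 3 weeks (adjusted p = 0.000274, limma). Within slides it was -0.92 and -0.85 on chow and -1.18 to -0.48 at 3 weeks. At 3 weeks both calls held under all 20 alternatives tried, whereas on chow without replicate 3 of the MuRF1 +/+ group 0 members passed, and the authors' series matrix also gave 0. On chow the Hars call was lost under 7 of 18 alternatives, among them leaving out MuRF1 +/+ replicate 1 or MuRF1 -/- replicate 1 or 3 and Agilent's own ratio, and the Adat2 call under 3 of 18. Agilent's own ratio, which has no offset that draws dim probes toward 0, gave the larger Adat2 differences of -1.54 on chow and -1.68 at 3 weeks.

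**Figure D2:**
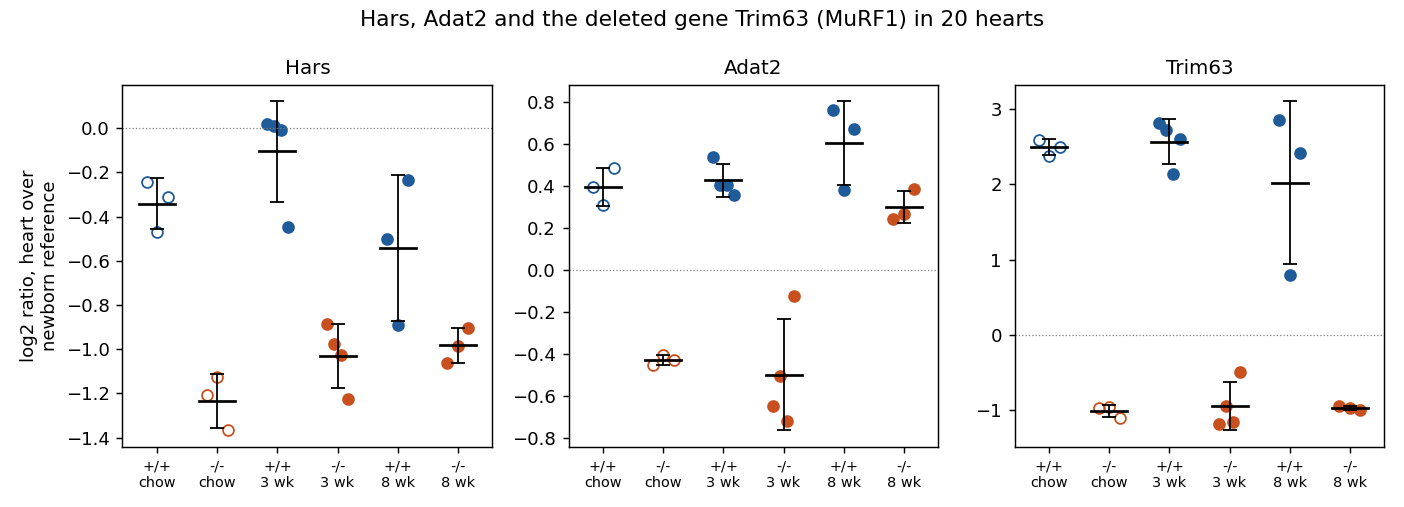
Log2 ratio of heart over newborn reference for Hars, Adat2 and Trim63 by genotype (+/+ blue, -/- orange) and diet (chow open circles, fenofibrate filled), 1 point per heart with mean and SD. Hars lies between -1.37 and -0.89 in all 10 MuRF1 -/- hearts, and Adat2 in MuRF1 -/- hearts is below 0 on chow and at 3 weeks and between 0.25 and 0.39 at 8 weeks.

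At 8 weeks of fenofibrate 0 members passed the genotype test, where 0.357% of all genes did (0.185% higher and 0.172% lower), and 10 of the 38 had an unadjusted p under 0.05 (limma), beside 22.3% of all genes. Hars had ratios of -0.50, -0.89 and -0.24 in MuRF1 +/+ hearts and -1.06, -0.99 and -0.90 in MuRF1 -/- hearts. The lowest MuRF1 +/+ heart, replicate 2, lay next to the highest MuRF1 -/- heart without overlap, and the difference was -0.44 ± 0.14 (adjusted p = 0.111, limma). Without the 2 arrays that stood apart 2 members passed, both lower in MuRF1 -/- hearts, beside 42 of 14576 genes. Among all members 6 were higher and 3 lower without overlap of the genotypes, beside 9.32% and 9.99% of all genes. Array weights gave 14 calls, 12 higher and 2 lower, beside 2549 of 14576 genes. Leaving out replicate 1 of the MuRF1 +/+ 8-week group gave 13, 12 higher and 1 lower, beside 3190 genes. Sex was unevenly split here, with Y-linked transcripts over background in 0 of 3 MuRF1 +/+ and 2 of 3 MuRF1 -/- hearts. This also touches the genotype difference of the 8-week response, and the part of sex in either was not tested beyond the Y-linked model.

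Adat2 was the deaminase that changed with time on fenofibrate in hearts without MuRF1. Its ratios were 0.25, 0.27 and 0.39 in MuRF1 -/- hearts at 8 weeks, all above the chow and 3-week hearts of that genotype, and 0.76, 0.38 and 0.67 in MuRF1 +/+ hearts. It rose in MuRF1 -/- hearts by 0.73 ± 0.12 against chow (adjusted p = 0.00329, limma) and by 0.80 ± 0.11 against 3 weeks (adjusted p = 5.64e-05, limma). Both calls held under all alternatives tried (18 and 19). In MuRF1 +/+ hearts the 8-week difference from chow was 0.21 ± 0.12 (adjusted p = 0.237, limma), and the 2 responses differed by 0.52 ± 0.17 (adjusted p = 0.200, limma), so a difference between the responses was not shown. The remaining genotype difference at 8 weeks was -0.31 ± 0.12 (adjusted p = 0.160, limma), and the groups overlapped by 1 heart. The Y-linked transcripts also differ between these groups.

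Lars, the cytosolic leucine enzyme and a sensor of leucine for mTORC1, was the other member that rose at 8 weeks in MuRF1 -/- hearts. The share of genes called there was 2.23% (1.08% higher and 1.15% lower), and 2 of 38 members passed. Without overlap of the groups 14 members were higher and 1 lower, beside 10.5% and 14.1% of all genes. Its ratios were -0.05, 0.07 and 0.07 on chow and 0.33, 0.49 and 0.30 at 8 weeks, which do not overlap, and the difference was 0.34 ± 0.09 (adjusted p = 0.0484, limma). The Lars call held under 6 of 18 alternatives, and its other probes gave 0.45 and 0.12. All 16 mitochondrial members missed the threshold in this comparison, with a median difference of 0.01.

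After 3 weeks of fenofibrate, more synthetases fell than rose in both genotypes. In MuRF1 +/+ hearts 15 of 38 members passed the test, 3 higher and 12 lower, where 24.5% of all genes passed (12.3% higher and 12.2% lower). In MuRF1 -/- hearts 12 passed, 4 higher and 8 lower, where 26.5% of all genes passed (14.3% higher and 12.1% lower). No heart is shared by the 2 responses, and 11 members passed in the same direction in both: Lars, Nars and Tars rose, and Aars, Farsa, Vars, Yars, Aars2, Fars2, Pars2 and Sars2 fell. These were 73.3% of the members called in MuRF1 +/+ hearts and 91.7% of those called in MuRF1 -/- hearts, where for all genes the shared calls made up 74.3% and 68.7%. Without overlap of the groups 6 members were higher and 15 lower in MuRF1 +/+ hearts, beside 23.4% and 22% of all genes, and 5 and 10 in MuRF1 -/- hearts, beside 17.2% and 14.8%. The median member differed by -0.12 and -0.08, and the median of all genes by 0.01 and -0.01. Without the 2 arrays that stood apart, the median member in MuRF1 -/- hearts differed by 0.002. Of these arrays only replicate 4 of the 3-week group is in this comparison. Leaving out that array alone also gave 0.002, so the shift of the median rested on it. In the fit without both arrays 16 members passed, 5 higher and 11 lower, beside 5312 of 14576 genes.

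Vars, the cytosolic valine enzyme and a partner of elongation factor 1, fell furthest of the cytosolic members. Its ratio in MuRF1 +/+ hearts was 0.15, 0.17 and 0.34 on chow and -0.59, -0.31, -0.33 and -0.43 at 3 weeks. Its MuRF1 -/- values were 0.16, 0.18 and 0.18 on chow and -0.59, -0.39, -0.60 and -0.40 at 3 weeks. All 6 chow hearts were above the reference and all 8 of the 3-week hearts below it. The differences were -0.63 ± 0.10 (adjusted p = 0.000166, limma) and -0.67 ± 0.10 (adjusted p = 7.84e-05, limma), and within slides they ran from -0.74 to -0.48 and from -0.78 to -0.57. A second measured Vars probe gave -0.51 and -0.59.

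Yars, the tyrosine enzyme, and Farsa, the alpha subunit of the phenylalanine enzyme, fell in both genotypes. For Yars the chow hearts were at -0.04, -0.11 and -0.05 (MuRF1 +/+) and -0.07, 0.02 and -0.27 (MuRF1 -/-), and the 3-week hearts at -0.41, -0.34, -0.52 and -0.54 and at -0.46, -0.43, -0.50 and -0.58. The groups do not overlap within a genotype, and Yars fell by 0.39 ± 0.09 in both (adjusted p = 0.00359 and 0.00336, limma). Farsa fell by 0.34 ± 0.07 (adjusted p = 0.00109, limma) and by 0.36 ± 0.07 (adjusted p = 0.000623, limma), and a second Farsa probe, over background on 19 arrays, gave -0.47 and -0.65, while another, over background on 6 arrays, gave 0.19 and 0.17. Farsb, the beta subunit, and Gars, the glycine enzyme, passed in MuRF1 +/+ hearts with -0.47 ± 0.16 and -0.51 ± 0.16, and in MuRF1 -/- hearts the tests of both missed the threshold. In MuRF1 +/+ hearts the Farsb call was lost under 11 of 18 alternatives and the Gars call under 9 of 19.

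Of the mitochondrial members, Aars2, Fars2, Pars2 and Sars2 fell in both genotypes, and they charge the tRNAs for alanine, phenylalanine, proline and serine. Sars2 was at 0.79, 0.67 and 1.11 in MuRF1 +/+ chow hearts and 0.43, 0.44, 0.31 and 0.27 at 3 weeks. The MuRF1 -/- hearts were at 0.50, 0.71 and 1.00 on chow and 0.28, 0.24, 0.41 and 0.19 at 3 weeks. Neither genotype shows an overlap, and all 14 hearts stayed above the newborn reference. The 4 genes fell by 0.37 to 0.79 in MuRF1 +/+ hearts, from Pars2 (-0.37 ± 0.09, adjusted p = 0.00793, limma) to Fars2 (-0.79 ± 0.27, adjusted p = 0.0406, limma). The 4 fell in MuRF1 -/- hearts by 0.46 to 0.83, from Sars2 (-0.46 ± 0.12, adjusted p = 0.0116, limma) to Fars2 (-0.83 ± 0.27, adjusted p = 0.0289, limma). Yars2 and Mars2 passed in MuRF1 +/+ hearts with -0.48 ± 0.15 and -0.28 ± 0.10, and Mars2 was well above background on 1 of its 4 arrays at 3 weeks. Wars2 rose in MuRF1 -/- hearts by 0.31 ± 0.11 (adjusted p = 0.0390, limma), while its other measured probe had -0.02. The Fars2 call was lost under 13 of 19 alternatives in MuRF1 +/+ hearts, among them leaving out any 1 chow heart, and under 9 of 19 in MuRF1 -/- hearts. Those of Mars2 and Wars2 were lost under 12 and 14 of 18, and that of Yars2 under 9 of 19.

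Tars, Lars and Nars, the threonine, leucine and asparagine enzymes of the cytosol, went the other way. Tars was at -1.01, -1.07 and -1.03 in MuRF1 +/+ chow hearts and -0.74, -0.80, -0.73 and -0.69 at 3 weeks. In MuRF1 -/- hearts it was at -0.88, -1.003 and -1.04 on chow and -0.63, -0.62, -0.74 and -0.62 at 3 weeks. The 3-week hearts lie above the chow hearts without overlap, and the rise was 0.30 ± 0.06 (adjusted p = 0.00195, limma) and 0.32 ± 0.06 (adjusted p = 0.000974, limma). A second Tars probe gave -0.04 and 0.01, so the rise rests on the brighter probe. Lars rose by 0.36 ± 0.08 and 0.29 ± 0.08 and Nars by 0.23 ± 0.07 and 0.27 ± 0.07. The Nars call was lost under 10 of 19 alternatives in MuRF1 +/+ hearts and under 5 of 19 in MuRF1 -/- hearts. Eprs, the joined glutamate and proline enzyme, had the largest other difference in MuRF1 -/- hearts, 0.53 ± 0.20 (adjusted p = 0.0582, limma).

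The promoters of Aars, Gars and Tars are shown because they hold the same response element while the transcripts, on the probes used, differ in direction. The element searched was TGATGNAA, the C/EBP-ATF response element that ATF4 is known to bind, on both strands of the 250 bases before the start of each gene in RefSeq (GRCm38.p6). Of the 39 members 29 had a promoter there, in 30 windows. The element was in 3 of 13 cytosolic windows (23.1%), 0 of 15 mitochondrial windows and 0 of 2 deaminase windows, and in 3.45% of all 32851 windows. Below are the last 120 bases before the start, 5′ to 3′ on the strand of the gene, with the element in capitals: Aars from chr8:111033722-111033841 (+), Gars from chr6:55037881-55038000 (+) and Tars from chr15:11399659-11399778 (-).
Aars: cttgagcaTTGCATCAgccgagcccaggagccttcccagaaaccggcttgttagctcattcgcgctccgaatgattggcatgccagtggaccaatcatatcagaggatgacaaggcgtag
Gars: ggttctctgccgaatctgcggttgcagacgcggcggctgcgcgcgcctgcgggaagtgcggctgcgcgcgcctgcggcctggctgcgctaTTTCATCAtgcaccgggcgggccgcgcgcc
Tars: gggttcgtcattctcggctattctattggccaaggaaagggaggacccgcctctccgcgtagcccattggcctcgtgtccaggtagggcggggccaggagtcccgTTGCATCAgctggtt
The element begins 112 bases before the start in Aars, 30 in Gars and 15 in Tars, read on the opposite strand in all 3. Aars fell at 3 weeks by 0.33 ± 0.10 and 0.47 ± 0.10, and Gars differed by -0.51 ± 0.16 and -0.28 ± 0.16, the latter short of the threshold. Tars rose on its brighter probe, while its second probe gave -0.04 and 0.01. Aars carries a dimmer probe that differed by 0.19 and 0.17 and another that differed by -0.79 and -0.88.

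The other motifs searched are given in the same way. The NRF1 motif (GCGC, any base, then TGCGC) was in 2 of 13 cytosolic windows (15.4%, Kars and Tars), 0 mitochondrial and 0 deaminase windows, and 3.74% of all windows. The ETS motif CCGGAAG was in 4 of 13 cytosolic windows (30.8%, Farsa, Gars, Mars1 and Sars), 3 of 15 mitochondrial windows (20.0%, Cars2, Mars2 and Sars2), 0 deaminase windows and 6.91% of all, so it matched more members than the C/EBP-ATF element did. A direct-repeat PPAR element (AGGTCA, any base, then AGGTCA) was in 0 of the 30 windows and in 0.0335% of all. These are matches of letters and not bound sites.

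Fewer calls at 3 weeks passed when the model held the Y-linked level, and markers of other cells also differed between the groups. The part of sex or of other cells in the result was not tested beyond the values here. When the model also held the Y-linked level, 1 member passed in each genotype. Of all 14576 genes 369 passed in MuRF1 +/+ hearts and 472 in MuRF1 -/- hearts. The member was Yars, which fell by 0.58 ± 0.15 in both (adjusted p = 0.0486 and 0.0415, limma). Vars had -0.61 ± 0.18 (adjusted p = 0.0721, limma) and -0.65 ± 0.17 (adjusted p = 0.0505, limma) in that model, nearly the same size with a wider error. Chow and 3-week hearts do not overlap in Ddx3y in either genotype, so this model cannot tell sex from the diet. The mean ratio over 10 endothelial markers was 0.26 to 0.28 in MuRF1 +/+ chow hearts and 0.53 to 0.84 at 3 weeks, and 0.17 to 0.35 and 0.50 to 0.90 in MuRF1 -/- hearts, with 3 of 10 called higher in each genotype. Of 8 fibroblast markers 4 were higher in MuRF1 +/+ and 2 in MuRF1 -/- hearts at 3 weeks. Of 8 cardiomyocyte markers 0 rose and 1 (Actc1) fell in each genotype. Of 5 smooth muscle markers Acta2 and Smtn fell in both. The mean over 4 atrial markers was -1.91 to -1.65 in MuRF1 +/+ chow hearts and -1.15 to -0.96 at 3 weeks, where Myl7 rose by 1.79 ± 0.50. In MuRF1 -/- hearts Nppa rose by 1.02 ± 0.21, and replicate 4 of the 3-week group had an atrial mean of -0.16 where the other hearts of its group were at -1.68 to -1.18.

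**Figure D3:**
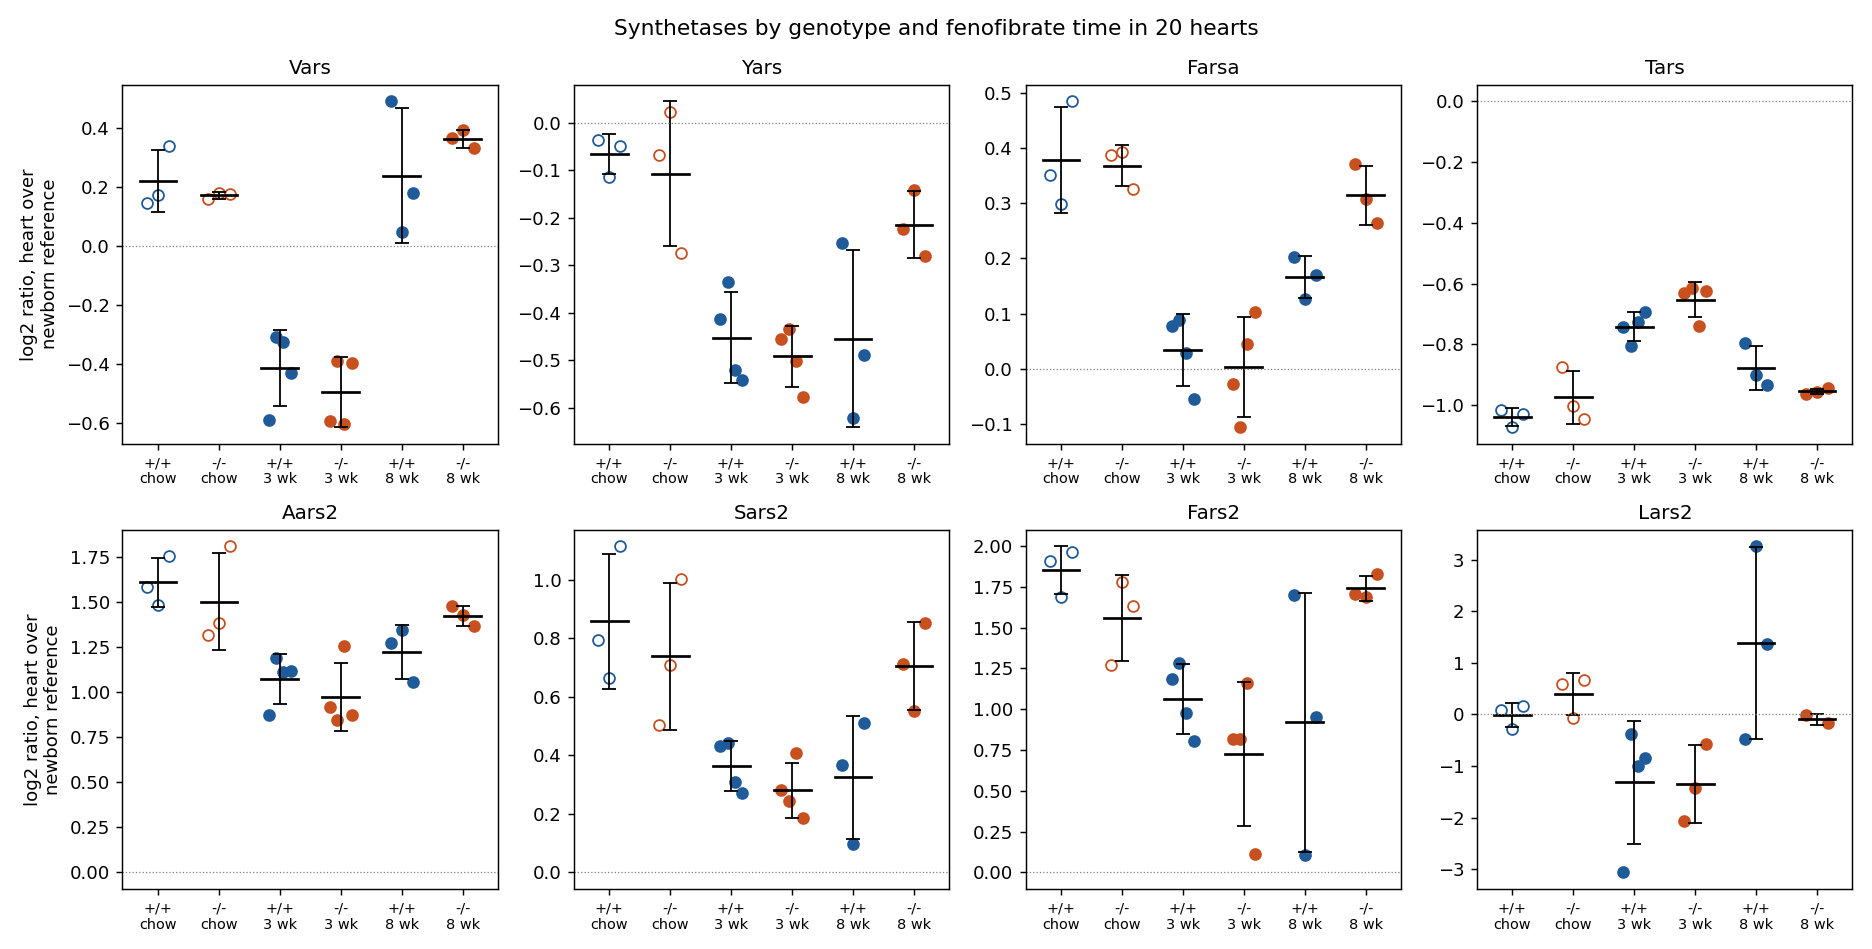
Log2 ratio of heart over newborn reference for 4 cytosolic (upper row) and 4 mitochondrial synthetases (lower row) by genotype (+/+ blue, -/- orange) and diet (chow open, fenofibrate filled), 1 point per heart with mean and SD; axes differ between panels. Vars is below 0 in all 8 of the 3-week hearts and above 0 in the other 12, and the 3 MuRF1 +/+ hearts at 8 weeks range from 0.11 to 1.70 for Fars2.

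After 8 weeks of fenofibrate in MuRF1 +/+ hearts, 6 of 38 members passed the test, where 14.8% of all genes passed (5.85% higher and 8.98% lower). Without overlap of the groups 2 members were higher and 10 lower, beside 13.4% and 16.1% of all genes. Sars, the cytosolic serine enzyme, rose by 0.43 ± 0.13 (adjusted p = 0.0313, limma). Those that fell were Yars in the cytosol and Fars2, Rars2, Sars2 and Yars2 in the mitochondria, by 0.39 to 0.93. Of the 16 mitochondrial members 15 had a difference below 0, with a median of -0.27, beside a median of 0.03 over all genes, of which 54.9% were above 0.

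The 8-week calls in MuRF1 +/+ hearts rested on hearts that differed from each other. Fars2 was at 1.91, 1.69 and 1.96 on chow and at 1.70, 0.11 and 0.95 at 8 weeks. The first 8-week heart lay within the chow range and the second far below it, and the difference was -0.93 ± 0.29 (adjusted p = 0.0379, limma). Yars2, the mitochondrial tyrosine enzyme, was at 0.87, 0.79 and 0.80 on chow and 0.65, -0.08 and 0.32 at 8 weeks. Sars was at 0.07, 0.07 and 0.19 on chow and 0.33, 0.88 and 0.41 at 8 weeks, with replicate 2 farthest from chow again. Within the 2 slides that held both groups, Fars2 differed by -1.85 and 0.01 and Rars2 by -0.65 and -0.01. Without replicate 2 no member passed (0 of 38), beside 1004 of 14576 genes. Without replicate 1 there were 17, beside 4742 genes, and without both arrays that stood apart there were 4, beside 1569. The calls over all genes thus moved with these arrays too.

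Markers of other cells also differed at 8 weeks in MuRF1 +/+ hearts. Of 10 endothelial markers 4 rose (Cdh5, Cldn5, Esam and Vwf), of 8 fibroblast markers 3 (Dcn, Fbln1 and Pdgfra) and of 4 adipocyte markers 1 (Fabp4), while Acta2 and Smtn of smooth muscle fell and Actc1 of cardiomyocytes fell by 1.64 ± 0.20. The endothelial mean of replicate 2 was 1.44, where the other hearts of the group were at 0.47, which is also above all chow hearts (0.26 to 0.28), and its mean over 8 fibroblast markers was -1.71, where they were at -2.92 and -2.63. The part of these cells in the result was not tested. The sex-linked transcripts separate these chow and 8-week hearts as well. When the model also held the Y-linked level 0 members passed, beside 77 of 14576 genes. Because that level separates the groups, this count cannot tell sex from the diet. In the difference between the genotypes of the 8-week response 0 members and 0% of genes passed. There 9 of 38 members had an unadjusted p under 0.05 (limma), beside 17.3% of all genes. Array weights gave 10 members, beside 2026 of 14576 genes. In the difference between the genotypes of the 3-week response 0 members and 0% of genes passed. There 0 members had an unadjusted p under 0.05 (limma), beside 2.26% of all genes.

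From 3 to 8 weeks of fenofibrate the MuRF1 -/- hearts rose in 15 of 38 members and fell in 1, where 31.5% of all genes were called, 13.5% higher and 18% lower. Without overlap of the groups 17 members were higher and 1 lower, beside 17.8% and 21.9% of all genes. The members that rose were Aars, Farsa, Farsb, Gars, Kars, Mars1, Qars, Vars and Yars in the cytosol, Aars2, Ears2, Fars2, Pars2 and Sars2 in the mitochondria, and Adat2. Tars fell by 0.30 ± 0.06 (adjusted p = 0.00127, limma), while its second probe gave 0.18. The median member differed by 0.22 and the median of all genes by 0.00. Without the 2 arrays that stood apart 16 members passed, 15 higher and 1 lower, beside 5990 of 14576 genes. The median member then differed by 0.15. The Y-linked transcripts were over background in 1 of 4 hearts at 3 weeks and 2 of 3 at 8 weeks. Xist was at -0.20 to 0.20 at 3 weeks and at -4.05 to -2.72 at 8 weeks, without overlap. Sex and time on the diet thus cannot be fully told apart here. When the model held the Y-linked level, 9 members passed, beside 2008 of 14576 genes. Of the markers of other cells, 5 of 10 endothelial and 5 of 8 fibroblast genes fell, and their part in the result was not tested.

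Vars rose furthest among the cytosolic members, by 0.86 ± 0.10 (adjusted p = 4.97e-06, limma), and Fars2 furthest among the mitochondrial ones called, by 1.01 ± 0.27 (adjusted p = 0.00806, limma). At 8 weeks the MuRF1 -/- hearts were at 0.36, 0.39 and 0.33 for Vars, above their chow hearts, and at 1.71, 1.69 and 1.83 for Fars2, which was at 0.82, 0.81, 1.16 and 0.11 at 3 weeks. Kars, the lysine enzyme that serves both cytosol and mitochondria, rose by 0.65 ± 0.20 (adjusted p = 0.0207, limma), and Qars, the glutamine enzyme, by 0.49 ± 0.15 (adjusted p = 0.0218, limma). The other 11 of the 15 rose by 0.28 (Yars) to 0.80 (Adat2). The calls of Vars, Fars2, Pars2 and Adat2 held under every alternative tried. That of Farsb was lost under 11 of 18 and that of Mars1 under 11 of 19.

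In MuRF1 +/+ hearts 3 of 38 members passed between 3 and 8 weeks, where 17.8% of all genes passed (8.12% higher and 9.65% lower). Without overlap of the groups 3 were higher and 1 lower, beside 10.9% and 13.5%. Vars rose by 0.65 ± 0.10 (adjusted p = 0.000187, limma), with 8-week hearts at 0.49, 0.05 and 0.18, all above the 3-week hearts, and the call held under all 18 alternatives. Hars fell by 0.44 ± 0.14 (adjusted p = 0.0321, limma) with overlapping groups, and the difference was -0.26 ± 0.12 without the 2 arrays that stood apart (adjusted p = 0.120, limma). The Hars call was lost under 11 of 19 alternatives, among them Agilent's own ratio, array weights and slide as a block. Lars2 was higher by 2.70 ± 0.68 (adjusted p = 0.0116, limma), with 3-week hearts at -3.06, -0.37, -0.99 and -0.84 and 8-week hearts at -0.47, 3.25 and 1.37. The Lars2 groups overlap, the within-slide differences were -0.09 and 2.20, and the call was lost with slide as a block.

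The other members with the largest differences of their role missed the threshold. Lars2 had differences of -1.31 ± 0.68 and -1.75 ± 0.73 at 3 weeks and 1.39 ± 0.73 and -0.49 ± 0.81 at 8 weeks (MuRF1 +/+, then MuRF1 -/-). Its lowest adjusted p among these was 0.0881 (limma), and its spread within groups, 1.03 (SD), exceeded that of every other member. At 8 weeks Farsb differed by -0.45 ± 0.17 in MuRF1 +/+ hearts, and Eprs and Dars, the aspartate enzyme, by 0.48 ± 0.22 and 0.35 ± 0.13 in MuRF1 -/- hearts. Fars2 was higher in MuRF1 -/- than MuRF1 +/+ hearts at 8 weeks by 0.82 ± 0.29 (adjusted p = 0.125, limma), and its 8-week responses differed between genotypes by 1.11 ± 0.41 (adjusted p = 0.214, limma). Adat1 differed by 0.18 ± 0.07 and 0.13 ± 0.07 at 3 weeks (adjusted p = 0.0778 and 0.187, limma). The members with no call in any comparison were 6 cytosolic (Cars, Dars, Eprs, Iars, Rars and Wars), 6 mitochondrial (Cars2, Hars2, Iars2, Nars2, Tars2 and Vars2) and Adat1. Hars2, the mitochondrial histidine enzyme, had genotype differences of 0.03 ± 0.07 on chow, 0.03 ± 0.06 at 3 weeks and 0.01 ± 0.07 at 8 weeks, although it was over background on only some arrays of 5 groups.

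Between the genotypes, the next differences were small or wide in error. On chow Farsb differed by -0.29 ± 0.17, Fars2 by -0.29 ± 0.29 and Lars2 by 0.40 ± 0.73. At 3 weeks Qars differed by -0.20 ± 0.14, Fars2 by -0.34 ± 0.25 and Cars2, the mitochondrial cysteine enzyme, by -0.17 ± 0.12. At 8 weeks Kars differed by 0.39 ± 0.22 and Lars2 by -1.48 ± 0.81. Adat1 stayed between 0.02 and 0.07 in these comparisons. In the difference of the 8-week responses Farsb had 0.64 ± 0.24, Gars 0.57 ± 0.24 and Lars2 -1.88 ± 1.09, and in that of the 3-week responses Eprs had 0.29 ± 0.29, Gars 0.23 ± 0.22, Yars2 0.38 ± 0.21 and Lars2 -0.44 ± 0.99. From 3 to 8 weeks Cars2 differed by -0.25 ± 0.12 in MuRF1 +/+ hearts, Lars2 by 1.26 ± 0.81 in MuRF1 -/- hearts, and Adat1 by -0.15 ± 0.07 in both. Iars2, the mitochondrial isoleucine enzyme, differed by 0.26 ± 0.18 at 8 weeks in MuRF1 -/- hearts, and Adat1 by 0.02 ± 0.08 and -0.02 ± 0.08 at 8 weeks.

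**Figure D4:**
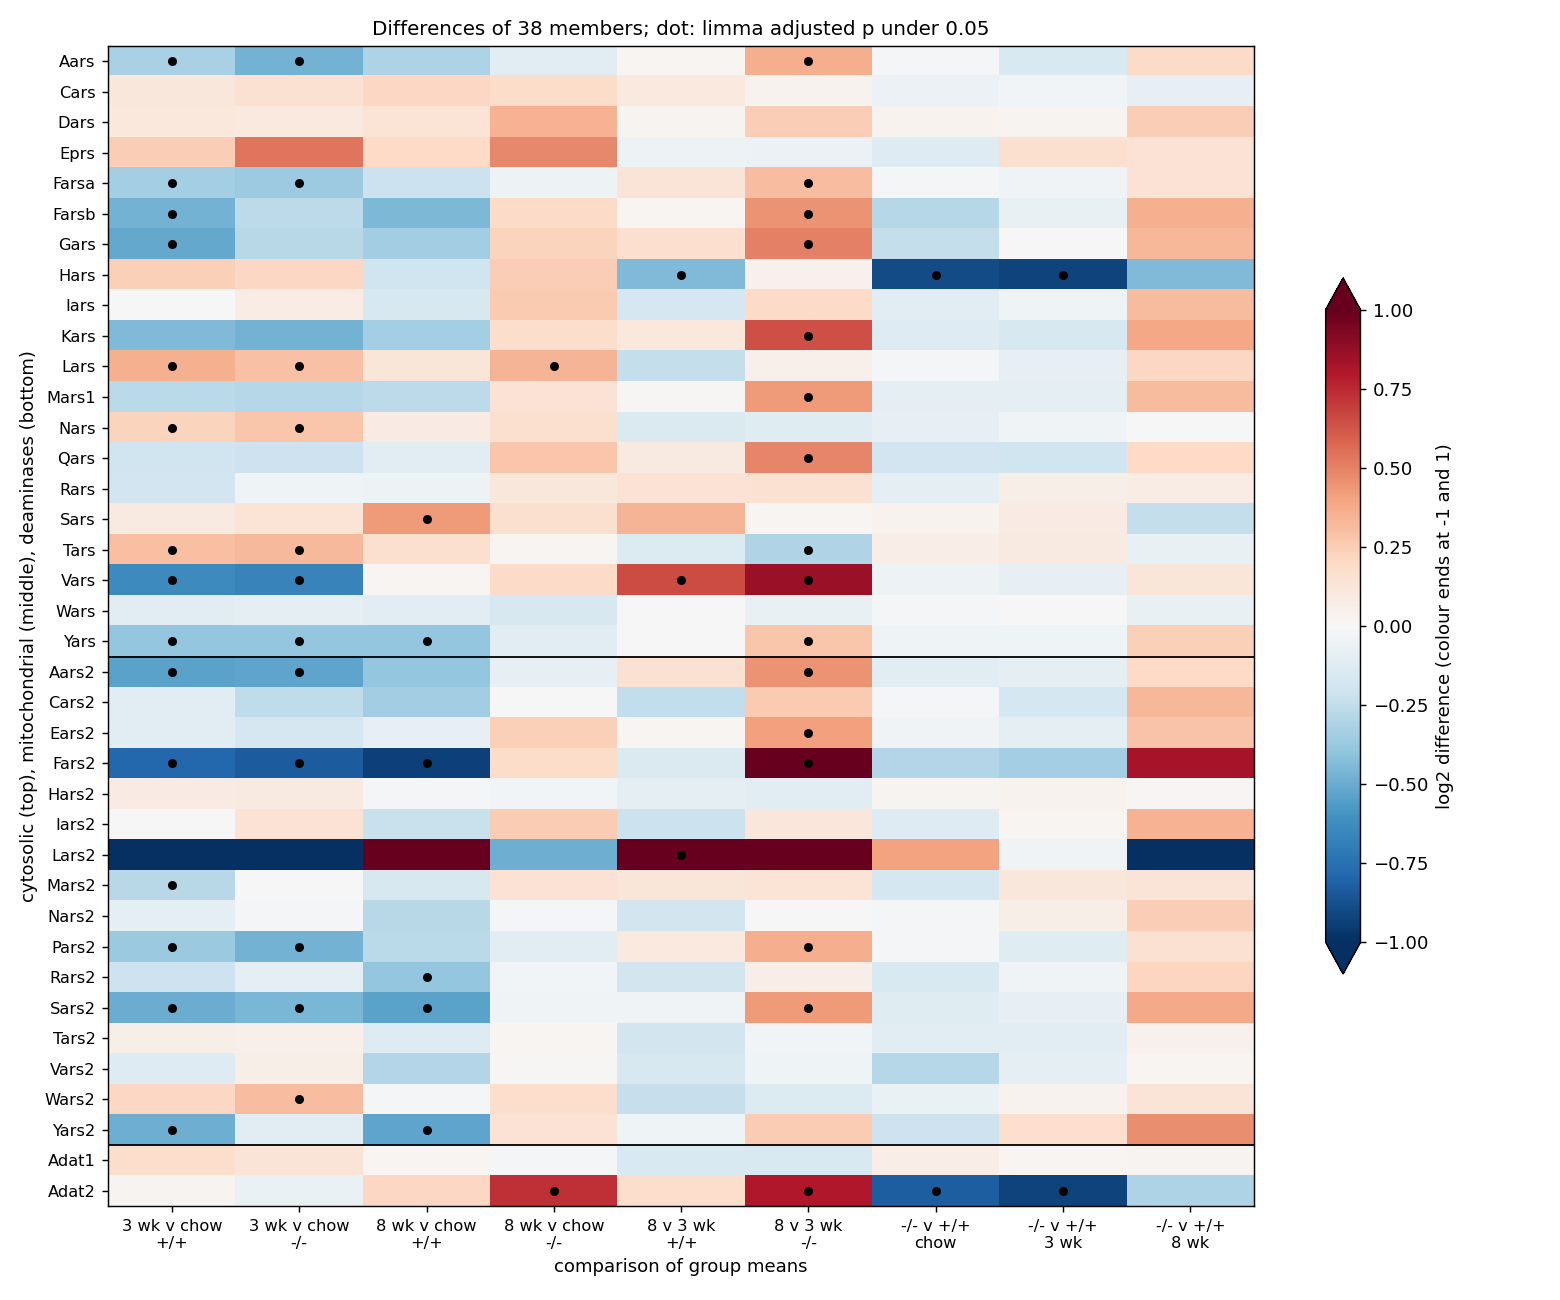
Log2 difference of 38 members in 9 comparisons (colour, ending at -1 and 1), with a dot where limma's adjusted p is under 0.05. The 3-week columns hold 15 and 12 dots, the 8-week columns 6 and 2, the columns of 8 against 3 weeks 3 and 16, and the genotype columns 2, 2 and 0.

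Partners of the synthetases were also measured. Of 11 genes for the scaffold of the cytosolic multi-synthetase complex, for mitochondrial charging and for related enzymes, 1 rose and 3 fell at 3 weeks in each genotype, where 24.5% (MuRF1 +/+) and 26.5% (MuRF1 -/-) of all genes were called. Aimp1 and Aimp2, which hold that complex together, went in opposite directions in both: Aimp1 rose by 0.38 ± 0.10 and 0.31 ± 0.10, and Aimp2 fell by 0.54 ± 0.12 and 0.55 ± 0.12. Qrsl1, a subunit of the mitochondrial amidotransferase that makes glutaminyl-tRNA, fell by 1.20 ± 0.13 at 8 weeks in MuRF1 +/+ hearts and by 0.51 ± 0.13 in MuRF1 -/- hearts. Of 24 measured genes of tRNA processing and modification, 1 rose and 2 fell at 3 weeks in MuRF1 +/+ hearts, and 2 rose and 3 fell in MuRF1 -/- hearts, beside 24.5% and 26.5% of all genes called. Gtpbp3, which modifies the wobble base of mitochondrial tRNAs, fell in both, by 0.69 ± 0.13 and 0.63 ± 0.13.

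Of 21 mitochondrial translation genes beyond the synthetases, 0 rose and 9 fell at 8 weeks in MuRF1 +/+ hearts, where 8.98% of all genes were called lower. The median of the 21 was -0.33, and among the 9 the mitochondrial ribosome genes Mrpl12 and Mrpl19 fell by 0.75 ± 0.09 and 0.76 ± 0.10 and the initiation factor gene Mtif2 by 0.54 ± 0.09. The mean ratio over the 21 was 0.90 to 1.08 in chow hearts and 0.80, 0.53 and 0.64 at 8 weeks, lowest in replicate 2, and the sex-linked transcripts differ between these groups too. In MuRF1 -/- hearts Mtif2 alone of the 21 passed, with -0.51 ± 0.09, and the median was -0.02. Of 31 measured genes of the ATF4 and amino acid response, 6 rose and 1 fell at 8 weeks in MuRF1 +/+ hearts, led by Ddit4 (1.85 ± 0.39), Cebpb (1.60 ± 0.24) and Asns, asparagine synthetase (0.86 ± 0.25), where 5.85% of all genes were called higher and 8.98% lower. In MuRF1 -/- hearts 2 rose (Cebpb and Eif4ebp1) and 0 fell at 8 weeks, beside 1.08% and 1.15% of all genes. At 3 weeks 0 rose in either genotype, where 12.3% (MuRF1 +/+) and 14.3% (MuRF1 -/-) of all genes were called higher. In MuRF1 +/+ hearts 3 of the 31 fell and in MuRF1 -/- hearts 4, near the 12.2% and 12.1% of all genes called lower. Shmt2, the mitochondrial serine hydroxymethyltransferase, fell at 3 weeks in both genotypes, by 0.55 ± 0.09 and 0.49 ± 0.09.

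Of 19 measured cytosolic initiation and elongation genes, 2 rose and 5 fell at 3 weeks in MuRF1 +/+ hearts, and 3 rose and 6 fell in MuRF1 -/- hearts, beside 12.3% and 12.2% of all genes called higher and lower in the former and 14.3% and 12.1% in the latter. The muscle form of elongation factor 1 alpha, Eef1a2, fell by 1.60 ± 0.30 and 1.37 ± 0.30, and the widely expressed form, Eef1a1, rose by 0.86 ± 0.27 and 0.80 ± 0.27. Eef2 fell by 0.67 ± 0.20 and 0.91 ± 0.20. From 3 to 8 weeks in MuRF1 -/- hearts Eef1a2 and Eef2 rose by 1.41 ± 0.30 and 1.21 ± 0.20 and Eef1a1 fell by 0.90 ± 0.27.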

How the data were processed

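Heart RNA (50 ng, amplified) of 20 mice was hybridised against a common reference on 2-colour Agilent arrays. The deposited scanner files hold spot intensity from Agilent Feature Extraction 9.5.3.1, per the file headers, with flags per spot deposited as 0 or 1 (an other kind of value: above background, saturated, outlier). The authors also deposited Agilent's log10 ratio and a series matrix of log2 values, made by steps that the labels and headers do not state. Here intensities were background-corrected with normexp (offset 50, without 7 spots of 1 MuRF1 -/- chow array whose background exceeded their signal by more than 50) and normalized by loess within arrays in limma 3.58.1 under R 4.3.3. Outlier spots (105 to 423 per array) were treated as missing, and 0 heart spots were saturated. The offset draws log ratios of dim probes toward 0, so Agilent's ratios are larger for such members. Array names were updated through RefSeq accessions and symbols (GRCm38.p6).

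A limma model of 6 group means (trended prior) was fitted to all 20 arrays, which fell into 5 sets of 4 arrays with 1 scan time and 1 grid name each, per the file headers, and these sets are called slides here. For 1 set the barcode field of the header names the slide of another set, so within-slide values rest on scan time and grid name. The labels call the hearts biological replicates. The model was tested on simulated data. The members, gene lists, comparisons and alternatives were chosen with earlier results of these data known. Named with values are every member past the threshold, the 2 members of each role with the largest differences in a comparison, those with the highest and lowest ratio to the reference, and up to 4 called genes of each other list. Of 58 calls of a member, 19 had another measured probe, and in 9 it had the opposite sign. Replicate numbers did not pair hearts: same-numbered hearts of different groups correlated from -0.58 to 0.45 in their deviations.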

Additional observations from a re-analysis of the deposited data

Results flagged for a closer look

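In groups of 4 hearts, 75 sets of member values were examined for a heart far from the other 3 by Dixon's criterion, which chance alone meets in about 1 set in 20, and 7 met it. Of the 7, 3 were replicate 4 of the MuRF1 -/- 3-week group, an array that also stood apart over all genes: Ears2 at 0.0031, Iars2 at -0.269 and Rars2 at -0.177, each below the other hearts of its group. In the same group Farsb was high in replicate 2 (0.171) and Tars was low in replicate 3 (-0.739). In the MuRF1 +/+ 3-week group Hars was low in replicate 4 (-0.445), and Eprs was low in replicate 3 (-0.594).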

How the results depend on the processing

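No member reversed its direction under any alternative in the comparison where it was called, and of 1083 values 809 kept their call and 274 fell short of the threshold. Leaving out 1 replicate at a time gave 0 to 17 members at 8 weeks in MuRF1 +/+ hearts, 1 in MuRF1 -/- hearts, 6 to 13 and 8 to 12 at 3 weeks, 2 to 7 and 10 to 15 for 8 against 3 weeks, 0 to 2, 2 and 0 to 13 for genotype on chow, at 3 and at 8 weeks, and 0 to 8 and 0 for the difference of the 8-week and 3-week responses. All spots in the background fit gave 3 and 1 members at 8 weeks (MuRF1 +/+, then -/-; 6 and 2 in the analysis reported), 6 at 3 weeks in MuRF1 -/- (12) and 0 for genotype on chow (2). Agilent's log ratio gave 2 and 1 at 8 weeks, 8 at 3 weeks in MuRF1 +/+ (15) and 1 for genotype on chow. The series matrix gave 1 and 1 at 8 weeks, 8 and 4 at 3 weeks and 0 for genotype on chow. Slide as a block gave 3 and 1 at 8 weeks, and 1 and 9 for 8 against 3 weeks (3 and 16). The Y-linked covariate gave 0 and 1 at 8 weeks, 1 and 1 at 3 weeks and 9 for 8 against 3 weeks in MuRF1 -/-. Array weights gave 20 and 4 at 8 weeks, 19 at 3 weeks in MuRF1 -/-, 8 for 8 against 3 weeks in MuRF1 +/+, 14 for genotype at 8 weeks and 10 for the difference of the 8-week responses. Only the groups compared gave 0 and 4 at 8 weeks and 1 for 8 against 3 weeks in MuRF1 +/+. Without the 2 arrays that stood apart there were 6 for 8 against 3 weeks in MuRF1 +/+ and 2 for genotype at 8 weeks. Calls over all genes moved with the settings too. At 8 weeks in MuRF1 +/+ hearts 2161 genes passed in the analysis reported, 5495 with array weights and 60 with only the groups compared. The causes were not tested. The replicate number as a block, although the numbers do not pair the hearts, gave 7 and 1 at 8 weeks, 10 and 11 at 3 weeks, 4 and 11 for 8 against 3 weeks, and 2, 2 and 0 for genotype.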
